A study of Homo sapiens with 6 samples.

Results

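The genes described here are 32 genes of cholesterol and fatty acid synthesis, among 16834 genes measured in RNA captured through ribosome tags whose level depends on the phase of the cell cycle. They were chosen by name, as known enzymes and regulators of both pathways, by a rule that uses no measured value. Earlier results of these data were known when they were chosen. All 32 were in the table of genes tested, and none was lost to the authors' filter on low read numbers. The cells were an unsynchronized culture of HEK293-T Flp-In, a human embryonic kidney line that carried ccTaggedRP at a single genomic site under the CAG promoter and was kept in Hygromycin B. ccTaggedRP is 1 bicistronic mRNA that encodes both tagged copies of the ribosomal protein RPL10a, made from the mouse cDNA. The Flag-tagged copy carries the hCdt degron and is predicted to persist in G1 and S, and the HA-tagged copy carries the hGeminin degron and is predicted to persist in S, G2 and M. RNA bound to either protein was recovered with an antibody to its tag, giving 3 Flag-IP and 3 HA-IP libraries of polyadenylated RNA with 23174532 to 44134833 recovered reads per library on the genes tested. No untagged or input library was analysed here, so each value compares 1 IP with the other and not with the RNA of the whole cell. In such pooled lysates, fewer tagged ribosomes or cells of a phase and less RNA of a gene per cell cannot be told apart.

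Cells make cholesterol from acetyl-CoA through mevalonate, isoprenoid pyrophosphates, squalene and lanosterol, and they make fatty acids from the same acetyl-CoA through malonyl-CoA. Both routes are driven by the sterol regulatory element-binding proteins, SREBPs, which are held in the membrane of the endoplasmic reticulum (ER) by SCAP and the INSIG proteins when sterols are plentiful. When sterols run low, SCAP escorts the SREBPs to the Golgi, where the proteases encoded by MBTPS1 and MBTPS2 release the part that enters the nucleus. Dividing cells need both products for new membrane.

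All but 1 of the 32 genes were read at a higher level per transcript length than the median gene of the table. The median of the 32 genes was 1449 normalized counts per kb of transcript, against 158.4 over all annotated genes tested. A normalized count is a read count divided by the size factor of its library, and 1 transcript per gene, the canonical one of GENCODE, gave the length. FASN, the multifunctional fatty acid synthase, had the highest level of the list, 23810 normalized counts per kb, and stood at rank 2 of all genes by its mean normalized count before any correction for length. ACLY, which makes cytosolic acetyl-CoA from citrate, followed at 11420 normalized counts per kb. SCD, the main desaturase of saturated fatty acids, stood at 6523 normalized counts per kb. FDPS at 5142 and HMGCS1 at 4926 were the highest enzymes of the sterol route on the same scale. The lowest gene was INSIG2, an ER anchor of SCAP, at 67.7 normalized counts per kb, and it was the 1 gene below the median of all genes.

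**Figure D1:**
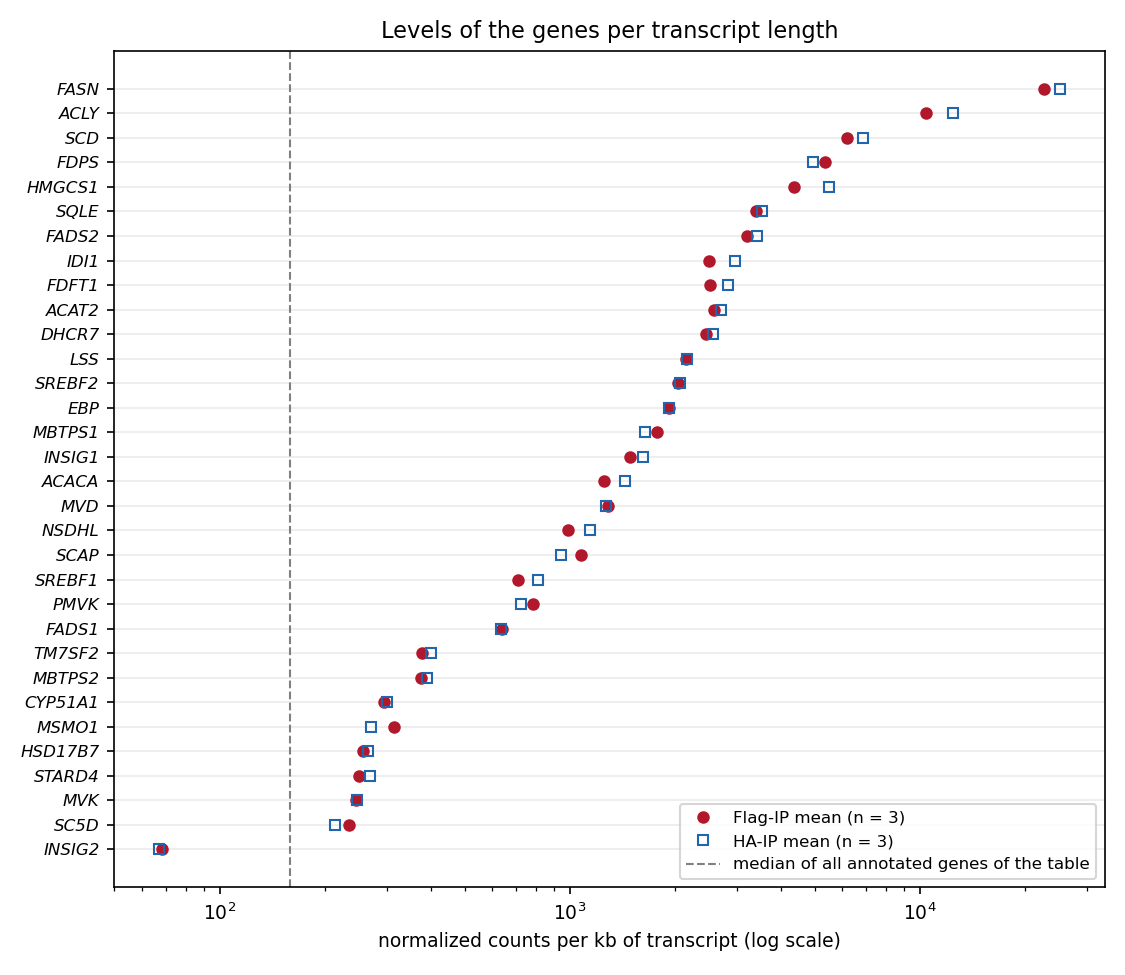
Level of each of the 32 genes per kb of transcript, as the mean of 3 Flag-IPs (red circles) and of 3 HA-IPs (blue squares), on a log axis. The dashed line marks the median of all annotated genes, 158.4 normalized counts per kb. FASN, ACLY and SCD stand at the top, and INSIG2 lies below the line in both IPs.

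The question of the comparison was which of these genes differed between RNA bound by HA-tagged ribosomes and RNA bound by Flag-tagged ribosomes. HMGCS1, IDI1, NSDHL, ACLY, ACACA and SCD were higher in the HA-IPs at an adjusted p of at most 0.05, by 11.4% to 25.9%. These 6 genes were 18.75% of the list, beside 5.79% of all genes tested that passed in the same direction. No gene of the list passed in the direction of the Flag-IPs, beside 7.1% of all genes tested. With DESeq2 on the recovered reads 7 genes of the list passed toward the HA-IPs and 1 toward the Flag-IPs, beside 6.2% and 7.31% of all genes. With edgeR 5 and 0 passed, beside 5.35% and 7.31%. Limma without the trend of variance on mean called none of the 6 (adjusted p 0.083 to 0.18) and 188 of all 16834 genes. In limma as reported, 13 of the 32 had an unadjusted p below 0.05, beside 4587 of all 16834 genes. Leaving out Flag-IP 2 left HMGCS1 as the 1 gene of the list called, and leaving out HA-IP 1, 2 or 3 left 2 genes. Among the 10234 genes with a mean at least as high as that of the lowest gene of the list, 9.29% were called higher in the HA-IPs and 7.06% higher in the Flag-IPs. Of these 10234 genes, 3552 had an unadjusted p below 0.05. The test was limma on log2(normalized counts + 1) over all 16834 genes, two-sided and adjusted by the Benjamini-Hochberg method, and fold changes here are differences on that log2 scale, HA-IP minus Flag-IP. Nothing in the labels says that the 3 replicates came from separate cultures, so the p-values measure the spread between these libraries, which may be technical.

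Of the 32 fold changes, 22 were positive and 10 negative, where 49.0% of all genes and 55.6% of the 10234 genes read at least as well as the lowest of the list were positive. The median log2 fold change of the list was 0.056, beside −0.005 for all genes tested and 0.022 for those well-read genes. All HA-IPs stood above all Flag-IPs for HMGCS1, IDI1, FDFT1, NSDHL, DHCR7, ACLY, ACACA and SCD, 8 genes of 32, which is 25%, where 16.1% of all genes and 23.3% of the well-read genes were separated that way. All Flag-IPs stood above all HA-IPs for FDPS, SC5D and MBTPS1, 3 genes of 32, where again 16.1% of all genes and 15.7% of the well-read genes were. All 32 fold changes were small. The largest, that of HMGCS1, was 0.33 on the log2 scale. The 95% intervals of the 26 genes that did not pass reached from −0.43 to 0.35 at the extremes, and their half-widths had a median of 0.13. These intervals are not adjusted for the number of genes tested. Those of FDPS, FDFT1, SC5D, INSIG1, SCAP, SREBF1 and MBTPS1 left out 0, although these genes did not pass after adjustment. The intervals of the other genes that did not pass covered 0.

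**Figure D2:**
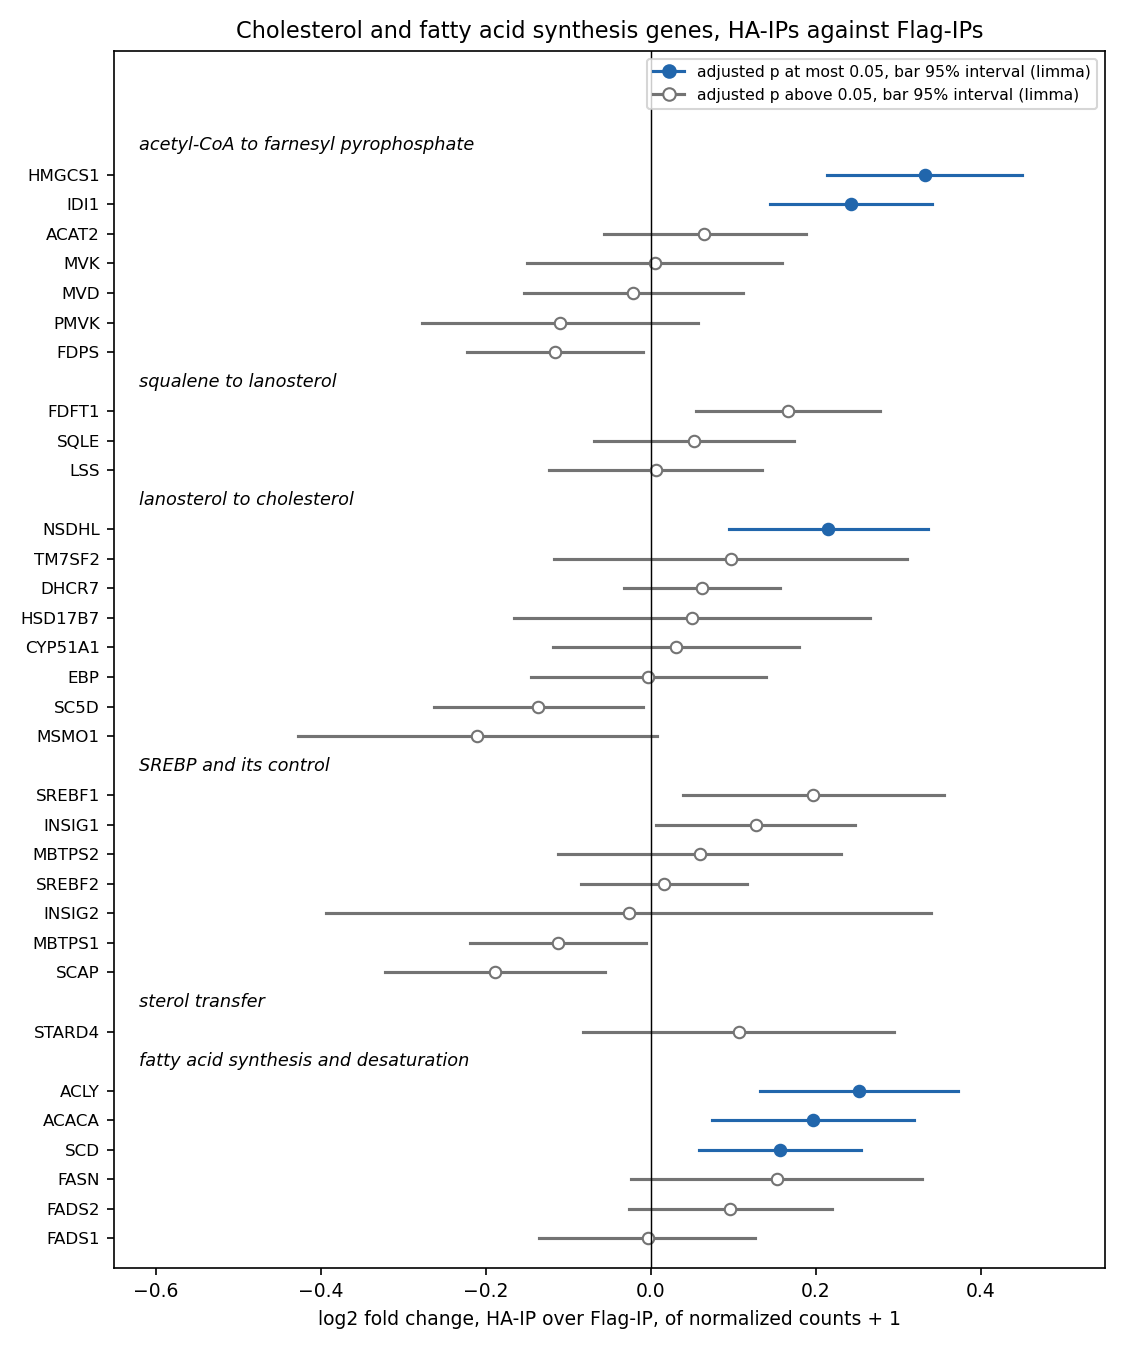
Log2 fold change of each gene, HA-IP over Flag-IP, with its 95% interval from limma, grouped by step of the pathway. Filled blue points mark the 6 genes with an adjusted p of at most 0.05, all to the right of 0. Open grey points mark the other 26, on both sides of 0.

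The promoters of the genes that were higher in the HA-IPs are shown because SREBPs are known to act from promoters of this pathway next to the factors NF-Y and SP1. RefSeq gave a promoter window, 250 bases before to 50 after the start, for 28 of the 32 genes, and none for ACAT2, FDFT1, SQLE and FASN. The stretches below are the 200 bases before the start, 5′ to 3′ on the strand of the gene. Capitals mark the letters of 4 motifs searched on both strands: TCACNCCAC, a form of the sterol regulatory element, CCAAT, the box bound by NF-Y, CACGTG, the E-box, and GGGCGG, the GC box bound by SP1. The window of IDI1 is counted but not shown because the RefSeq start lies 7585 bases upstream of the start of the canonical GENCODE transcript. FADS2, also counted but not shown, has its RefSeq start 12097 bases upstream likewise. SREBF2, which encodes SREBP2, is shown beside the others as the 1 window of the 28 that held this form of the sterol element. Other forms of the element, and bases outside the windows, were not searched.
HMGCS1 promoter (GRCh38.p14, chr5:43313413-43313612, minus strand): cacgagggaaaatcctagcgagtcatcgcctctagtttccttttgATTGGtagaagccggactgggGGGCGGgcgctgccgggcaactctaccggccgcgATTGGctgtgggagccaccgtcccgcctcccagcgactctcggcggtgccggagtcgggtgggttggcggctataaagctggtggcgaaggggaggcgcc
NSDHL promoter (GRCh38.p14, chrX:152830863-152831062, plus strand): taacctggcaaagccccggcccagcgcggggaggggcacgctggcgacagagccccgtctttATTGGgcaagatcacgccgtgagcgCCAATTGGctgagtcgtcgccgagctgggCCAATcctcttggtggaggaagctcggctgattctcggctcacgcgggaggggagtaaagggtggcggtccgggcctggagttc
ACLY promoter (GRCh38.p14, chr17:41919023-41919222, minus strand): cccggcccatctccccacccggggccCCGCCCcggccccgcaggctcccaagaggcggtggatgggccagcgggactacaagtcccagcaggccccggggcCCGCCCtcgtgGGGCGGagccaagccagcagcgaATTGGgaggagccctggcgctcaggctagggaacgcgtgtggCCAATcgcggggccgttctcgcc
SCD promoter (GRCh38.p14, chr10:100347033-100347232, plus strand): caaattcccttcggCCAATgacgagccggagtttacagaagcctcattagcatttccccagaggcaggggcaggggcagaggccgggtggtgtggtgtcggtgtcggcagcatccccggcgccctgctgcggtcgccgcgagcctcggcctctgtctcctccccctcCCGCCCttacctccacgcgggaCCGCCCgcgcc
ACACA promoter (GRCh38.p14, chr17:37406837-37407036, minus strand): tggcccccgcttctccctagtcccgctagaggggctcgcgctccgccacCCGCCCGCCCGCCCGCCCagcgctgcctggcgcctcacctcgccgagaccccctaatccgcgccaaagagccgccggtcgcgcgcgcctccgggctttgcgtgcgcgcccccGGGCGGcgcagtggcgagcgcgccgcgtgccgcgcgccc
SREBF2 promoter (GRCh38.p14, chr22:41832905-41833104, plus strand): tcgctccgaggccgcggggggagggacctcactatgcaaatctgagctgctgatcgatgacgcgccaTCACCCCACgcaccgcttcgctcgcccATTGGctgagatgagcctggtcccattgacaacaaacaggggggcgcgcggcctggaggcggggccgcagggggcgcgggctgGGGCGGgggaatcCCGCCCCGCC

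CCAAT occurred in 17 of the 28 windows, 60.7%, beside 36.5% of the 11687 RefSeq windows of genes in the table and 34.6% of all 35116 windows. At least 2 CCAAT boxes occurred in 12 of the 28 windows, 42.9%, beside 13.4% of the windows of genes in the table. The stretches of HMGCS1, NSDHL and ACLY show such pairs, written as ATTGG where the box lies on the other strand. In NSDHL a CCAAT and an ATTGG overlap and appear as 1 run of capitals. SCD has a second box 229 bases before the start, outside the stretch shown. Of the 6 genes higher in the HA-IPs, 4 had a CCAAT box in the window, namely HMGCS1, NSDHL, ACLY and SCD. The GC box occurred in 24 of the 28 windows, 85.7%, beside 69.6% of the windows of genes in the table, and in 5 of the 6 genes that passed, the exception being NSDHL. One of the 5 is IDI1, whose window lies at the distant start. In ACACA 4 GC boxes on the other strand follow each other and appear as 1 run. CACGTG occurred in 4 of the 28 windows, those of LSS, SC5D, INSIG1 and SCAP, 14.3% beside 10.01% of the windows of genes in the table. TCACNCCAC occurred in 1 of the 28 windows, 3.57% beside 1.04%, in SREBF2, 133 bases before the start and close to an ATTGG. Among the 22 windows of genes that did not pass, CCAAT occurred in 13 and the GC box in 19. Matches describe letters in a window, not binding.

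The first steps lead from acetyl-CoA to farnesyl pyrophosphate, and 2 of their 7 genes passed, both higher in the HA-IPs. HMGCS1, the cytosolic synthase that makes HMG-CoA, had 22849, 22405 and 24767 normalized counts in Flag-IPs 1 to 3, against 28638, 28788 and 30680 in HA-IPs 1 to 3. The groups lay well apart. The mean was 23340 ± 1255 (SD, n = 3) in the Flag-IPs and 29369 ± 1138 in the HA-IPs, a log2 fold change of 0.33 with a standard error of 0.054 and an adjusted p of 0.0033 (limma). HMGCS1 is on the minus strand of chromosome 5 at 43287470 to 43313512 (GRCh38). It was the 1 gene of the list that passed in every fit that left out 1 library, with adjusted p between 0.00029 and 0.035. An unnamed long noncoding RNA on the opposite strand covers 37.7% of its exon bases and had a mean of 32.7 normalized counts. Whether the authors' counting used strand is not given in the sources used here.

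IDI1, the isomerase that turns isopentenyl into dimethylallyl pyrophosphate, had 7009, 6643 and 6881 normalized counts in the 3 Flag-IPs, whereas the 3 HA-IPs read 8140, 7979 and 8178. The lowest HA-IP stood above the highest Flag-IP. The log2 fold change was 0.24 with a standard error of 0.045 and an adjusted p of 0.0063. IDI1 lies on the minus strand of chromosome 10 at 1039152 to 1049119. Without Flag-IP 2 its adjusted p was 0.053. Part of the antisense gene IDI2-AS1, with a mean of 18.1 normalized counts, overlaps 15.0% of its exon bases.

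The other 5 genes of this branch did not pass. FDPS, which joins isoprenoid units into geranyl and farnesyl pyrophosphate, went the other way, with 7405, 7854 and 7477 normalized counts among the Flag-IPs, beside 6689, 7097 and 7195 among the HA-IPs. Its groups did not overlap, but its log2 fold change of −0.12 had an adjusted p of 0.15. It passed toward the Flag-IPs once libraries were set to an equal total (adjusted p 0.039) or quantile normalized (adjusted p 0.036). With the trends of GC content and length removed its log2 fold change was −0.016 with an adjusted p of 0.86. MVK and PMVK phosphorylate mevalonate and its phosphate, and MVD removes a carboxyl group to make isopentenyl pyrophosphate. Their log2 fold changes were 0.005, −0.11 and −0.02. ACAT2, the cytosolic thiolase at the entry to the route, had a log2 fold change of 0.07. ACAT2 shares 17.2% of its exon bases with TCP1, a chaperonin gene on the opposite strand with a mean of 24979 normalized counts, so its own level is uncertain.

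From farnesyl pyrophosphate to lanosterol none of the 3 genes passed. FDFT1, the squalene synthase, came closest, with 5299, 5102 and 4978 normalized counts across Flag-IPs 1 to 3, against 5529, 5691 and 6044 across HA-IPs 1 to 3. The groups did not overlap. The log2 fold change was 0.17 with a standard error of 0.051 and an adjusted p of 0.053. It passed with DESeq2 (adjusted p 0.041), with only genes of a mean of at least 50 (0.049), with the trends of GC content and length removed (0.0066) and without Flag-IP 1 (0.029). SQLE, the squalene epoxidase, had a log2 fold change of 0.05 and LSS, which closes the rings to lanosterol, 0.006. Flag-IP 1 was the lowest library of both, with 9288 normalized counts of SQLE where the other 5 ranged from 10287 to 10618, and with 9630 of LSS where the other 5 ranged from 10240 to 11158.

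Of the 8 genes that turn lanosterol into cholesterol, NSDHL alone passed. NSDHL, a dehydrogenase that helps to remove the methyl groups at carbon C4 of the sterol, had 1756, 1757 and 1902 normalized counts in the 3 Flag-IPs, whereas the 3 HA-IPs read 2082, 2055 and 2147. No values overlapped. The log2 fold change was 0.22 with a standard error of 0.055 and an adjusted p of 0.027, and the gene lies on the plus strand of chromosome X at 152830967 to 152869729. Leaving out Flag-IP 2, HA-IP 1, HA-IP 2 or HA-IP 3 raised the adjusted p to between 0.076 and 0.13, with a log2 fold change of 0.20 to 0.23. Scaling to the same total gave an adjusted p of 0.069.

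MSMO1 and SC5D had the largest negative fold changes of this step, and neither passed. MSMO1, the oxidase that acts on the same methyl groups as NSDHL, had 796, 708 and 599 normalized counts among the Flag-IPs, beside 627, 603 and 576 among the HA-IPs. Flag-IP 3 lay within the range of the HA-IPs. Its log2 fold change of −0.21, the most negative of the list, had a standard error of 0.099 and an adjusted p of 0.20, and without Flag-IP 3 it was −0.32 with an adjusted p of 0.025. SC5D, the lathosterol desaturase, had 1651, 1540 and 1628 normalized counts across Flag-IPs 1 to 3, against 1502, 1398 and 1482 across HA-IPs 1 to 3. Its groups did not overlap, and the log2 fold change of −0.14 had a standard error of 0.058 and an adjusted p of 0.15. NSDHL and MSMO1, which serve the same demethylation, had fold changes of opposite sign, and that difference was not tested.

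The remaining genes of the late steps differed little. DHCR7, which makes cholesterol from its last precursor, had 6384, 6403 and 6540 normalized counts in the 3 Flag-IPs, whereas the 3 HA-IPs read 6648, 6725 and 6807. The groups did not overlap and the coefficient of variation was 1.32% and 1.18%, but the log2 fold change was 0.06, with a 95% interval from −0.03 to 0.16 and an adjusted p of 0.40. CYP51A1, the lanosterol demethylase, had a log2 fold change of 0.03, TM7SF2, a sterol reductase, 0.10, HSD17B7, a ketoreductase of the same complex as NSDHL, 0.05, and EBP, a sterol isomerase, −0.003. All 4 had overlapping groups. Reads of HSD17B7 could be split with its pseudogene HSD17B7P2, which had a mean of 80.0 normalized counts. CYP51A1 shares 68.2% and 67.8% of its exon bases with a pair of unnamed protein-coding genes on the same strand, and EBP shares 36.4% with another, so the authors' counting could have set aside reads of both.

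None of the 7 genes of SREBP and its control passed. Of the 7, 4 had an unadjusted p below 0.05, beside 4587 of all 16834 genes. SREBF1, which encodes the SREBP1 forms that favour fatty acid genes, had 3101, 3499 and 3851 normalized counts among the Flag-IPs, beside 4052, 4085 and 3805 among the HA-IPs. HA-IP 3 lay below Flag-IP 3. Its log2 fold change of 0.20 had an adjusted p of 0.099, and without Flag-IP 3 it was 0.27 with an adjusted p of 0.011. SREBF2, whose product favours cholesterol genes, had 10384, 10633 and 10932 normalized counts across Flag-IPs 1 to 3, against 11062, 10779 and 10458 across HA-IPs 1 to 3, fully interleaved, with a log2 fold change of 0.02 and a 95% interval from −0.09 to 0.12.

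SCAP, the escort of the SREBPs and their sterol sensor, was lower in the HA-IPs by the values but not by the test. It had 4219, 4764 and 4783 normalized counts in the 3 Flag-IPs, whereas the 3 HA-IPs read 3944, 4239 and 3879, and HA-IP 2 stood just above Flag-IP 1. The log2 fold change was −0.19 with a standard error of 0.061 and an adjusted p of 0.064. It passed toward the Flag-IPs with DESeq2 (adjusted p 0.039), with quantile normalization or the same total (0.022 in both), with the GC and length trends removed (0.0062) and without Flag-IP 1 (0.0077). MBTPS1, the site-1 protease, had 7632, 7944 and 7694 normalized counts among the Flag-IPs, beside 7524, 7097 and 6913 among the HA-IPs. These did not overlap, and the log2 fold change of −0.11 had an adjusted p of 0.16, which became 0.038 with the GC and length trends removed and 0.049 after quantile normalization. MBTPS2, the site-2 protease, had a log2 fold change of 0.06.

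INSIG1, an ER anchor of SCAP and itself a known SREBP target, had 4088, 4260 and 4603 normalized counts across Flag-IPs 1 to 3, against 4571, 4890 and 4670 across HA-IPs 1 to 3. Its log2 fold change of 0.13 had an adjusted p of 0.16, and without Flag-IP 3 it was 0.17 with an adjusted p of 0.035. INSIG2 had 292, 234 and 203 normalized counts in the 3 Flag-IPs, whereas the 3 HA-IPs read 236, 192 and 289. It had the largest spread of the list, with a coefficient of variation of 18.7% in the Flag-IPs and 20.3% in the HA-IPs, and a 95% interval from −0.39 to 0.34. STARD4, a soluble carrier that moves sterol between membranes, had 1306, 1065 and 1090 normalized counts among the Flag-IPs, beside 1283, 1136 and 1300 among the HA-IPs. Its groups overlapped, and the log2 fold change of 0.11 had an adjusted p of 0.47.

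Fatty acid synthesis and desaturation held 3 genes that passed among 6, all higher in the HA-IPs. That is 50%, beside 5.79% of all genes and 9.29% of the 10234 well-read genes. The median log2 fold change of the 6 was 0.15. With quantile normalization the median was 0.012 and none of the 6 passed, and with the same total it was 0.10 and 1 passed. ACLY had 42666, 43957 and 47660 normalized counts across Flag-IPs 1 to 3, against 51870, 53664 and 54248 across HA-IPs 1 to 3. No values overlapped. The mean was 44761 ± 2592 (SD, n = 3) against 53260 ± 1239, a log2 fold change of 0.25 with a standard error of 0.055 and an adjusted p of 0.013. ACLY lies on the minus strand of chromosome 17 at 41866917 to 41930542. Quantile normalization lowered the log2 fold change to 0.11 with an adjusted p of 0.10, and leaving out Flag-IP 2, HA-IP 1, HA-IP 2 or HA-IP 3 gave an adjusted p just past the threshold to 0.085.

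ACACA, the carboxylase that makes malonyl-CoA and commits acetyl-CoA to fatty acids, had 12075, 12175 and 13437 normalized counts in the 3 Flag-IPs, whereas the 3 HA-IPs read 13650, 14900 and 14605. The gap between the groups was narrow. The log2 fold change was 0.20 with a standard error of 0.056 and an adjusted p of 0.041. ACACA lies on the minus strand of chromosome 17 at 37084992 to 37406836. Its call held without Flag-IP 3 (adjusted p 0.0042) and was lost without any other library, with an adjusted p between 0.064 and 0.18. With the GC and length trends removed the log2 fold change was 0.13 with an adjusted p of 0.080, with the same total 0.14 with 0.076, and with quantile normalization 0.11 with 0.12.

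SCD had 32609, 32197 and 32280 normalized counts among the Flag-IPs, beside 35400, 36190 and 36615 among the HA-IPs. Its replicates were close to each other, with a coefficient of variation of 0.674% in the Flag-IPs. The log2 fold change was 0.16 with a standard error of 0.045 and an adjusted p of 0.042, and the gene lies on the plus strand of chromosome 10 at 100347233 to 100364826. SCD turned to a log2 fold change of −0.002 with an adjusted p of 0.99 after quantile normalization. Its call held without Flag-IP 3 (adjusted p 0.015), and leaving out any other library gave an adjusted p between 0.051 and 0.17. The same total gave a log2 fold change of 0.10 with an adjusted p of 0.10.

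FASN, next to ACACA in the route, did not pass. It had 172769, 189015 and 211486 normalized counts across Flag-IPs 1 to 3, against 206186, 228586 and 201218 across HA-IPs 1 to 3. Flag-IP 3 stood above 2 of the HA-IPs, and the log2 fold change of 0.15 had an interval from −0.02 to 0.33 and an adjusted p of 0.25. Without Flag-IP 3 it was 0.23 with an adjusted p of 0.016, and without Flag-IP 1 it was 0.082 (0.55). Quantile normalization gave 0, but it sets genes of the same rank to the same value in every library. FASN, at rank 2 of all genes by its mean, could hardly differ there. Removing the GC and length trends gave 0.047 (0.61). FADS1 and FADS2, the desaturases of polyunsaturated fatty acids, are neighbours on chromosome 11 on opposite strands and share 490 exon bases. FADS2 had a log2 fold change of 0.10 with an adjusted p of 0.31, and FADS1 −0.004 with 0.98.

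**Figure D3:**
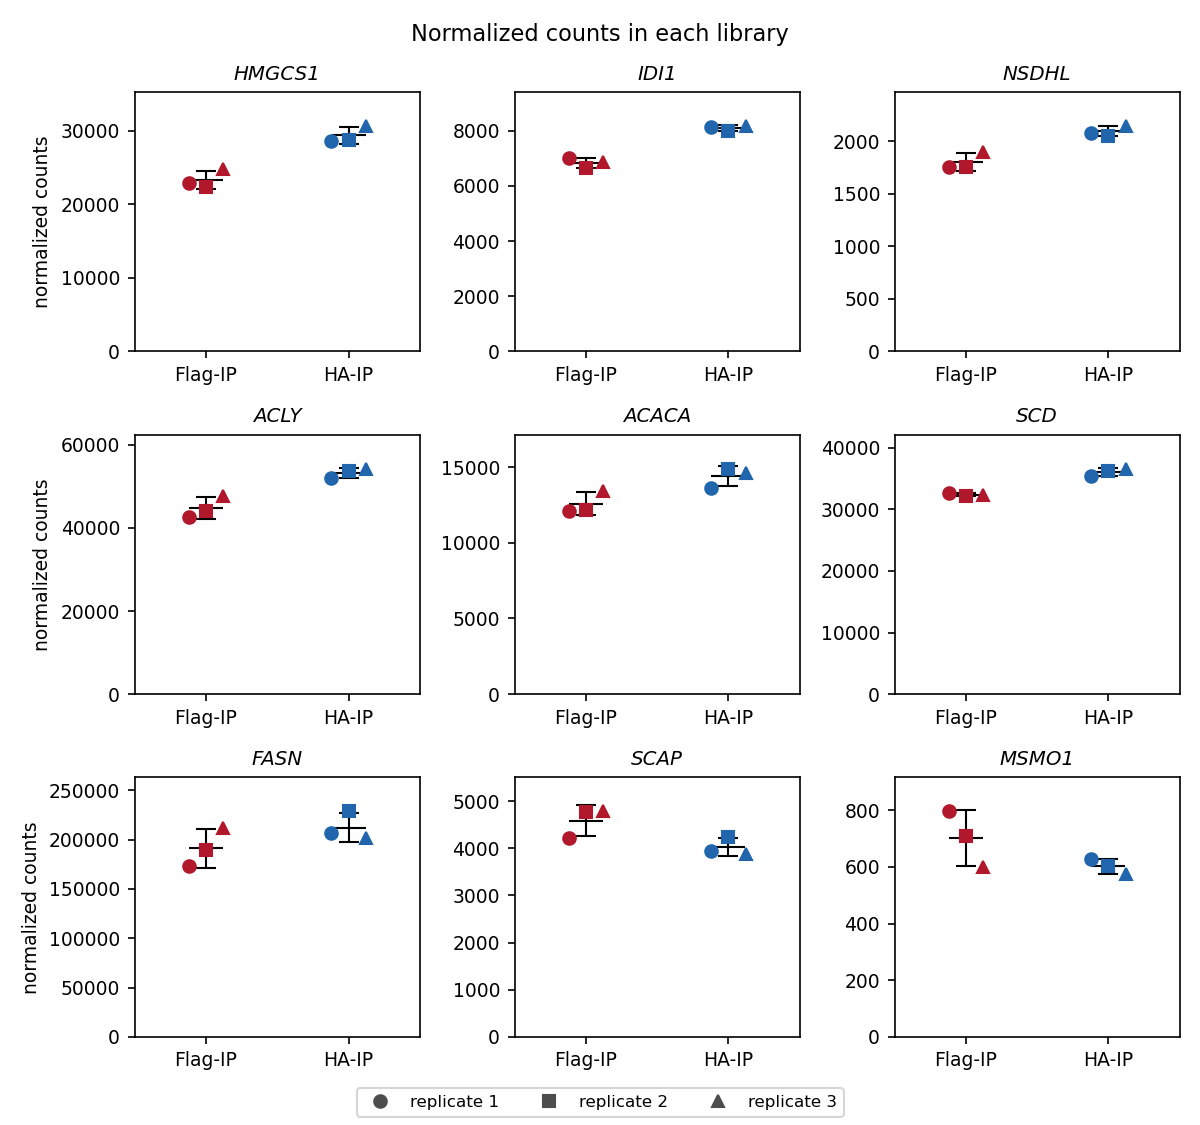
Normalized counts of 9 genes in each library, with red symbols for the Flag-IPs, blue for the HA-IPs, and the mean and SD of 3 libraries in black; each axis starts at 0. The first 6 panels are the genes that passed, with no overlap between the groups and the HA-IPs on top. In FASN, SCAP and MSMO1 the groups overlap.

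Summed over the list, the 32 genes made up 1.292%, 1.366% and 1.429% of all normalized counts in Flag-IPs 1 to 3, against 1.434%, 1.508% and 1.418% in HA-IPs 1 to 3. FASN set much of this sum and of its overlap. Without FASN the share was 0.718% to 0.743% in the Flag-IPs and 0.772% to 0.783% in the HA-IPs, which did not overlap. The rest of the sum is led by ACLY, SCD and HMGCS1, already called higher in the HA-IPs. The separation thus restates such calls in part and does not show a shift of the whole list. By step, it held for the 7 genes up to farnesyl pyrophosphate (0.149% to 0.152% against 0.164% to 0.171%). The groups overlapped in the share of every other step, with FASN counted in its own. By library, 11, 11 and 16 of the 32 genes stood above their own mean across Flag-IPs 1 to 3, against 19, 22 and 21 across HA-IPs 1 to 3. The same was not counted over all genes, and 55.6% of the 10234 well-read genes had a positive fold change. Flag-IP 3 was the Flag-IP closest to the HA-IPs on this list, and SREBF1, INSIG1, FASN and MSMO1 were called once it was left out. It was also the Flag-IP closest to the HA-IPs in the summed share of heart muscle markers, 0.350% beside 0.758% in Flag-IP 1 and 0.547% in Flag-IP 2, and the part of this in the differences was not tested.

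The 6 genes that passed were read more than the other 26, with a median of the mean over all 6 libraries of 19914 against 3258 normalized counts, and their canonical transcripts were longer, with a median of 4769 against 3026 bases. Their median GC content was 47.7% against 52.6%. NSDHL, with 1833 bases, and IDI1, with 2739 bases, passed although they were shorter than the median of the other 26. The part of these properties in the calls was not tested. With the trends of GC content and transcript length removed, HMGCS1, IDI1, NSDHL and ACLY still passed, ACACA and SCD did not, and FDFT1, ACAT2 and SREBF1 joined them, so that 7 genes were called toward the HA-IPs, beside 6.86% of all genes. In the same fit SCAP and MBTPS1 were called toward the Flag-IPs, beside 7.92% of all genes.

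**Figure D4:**
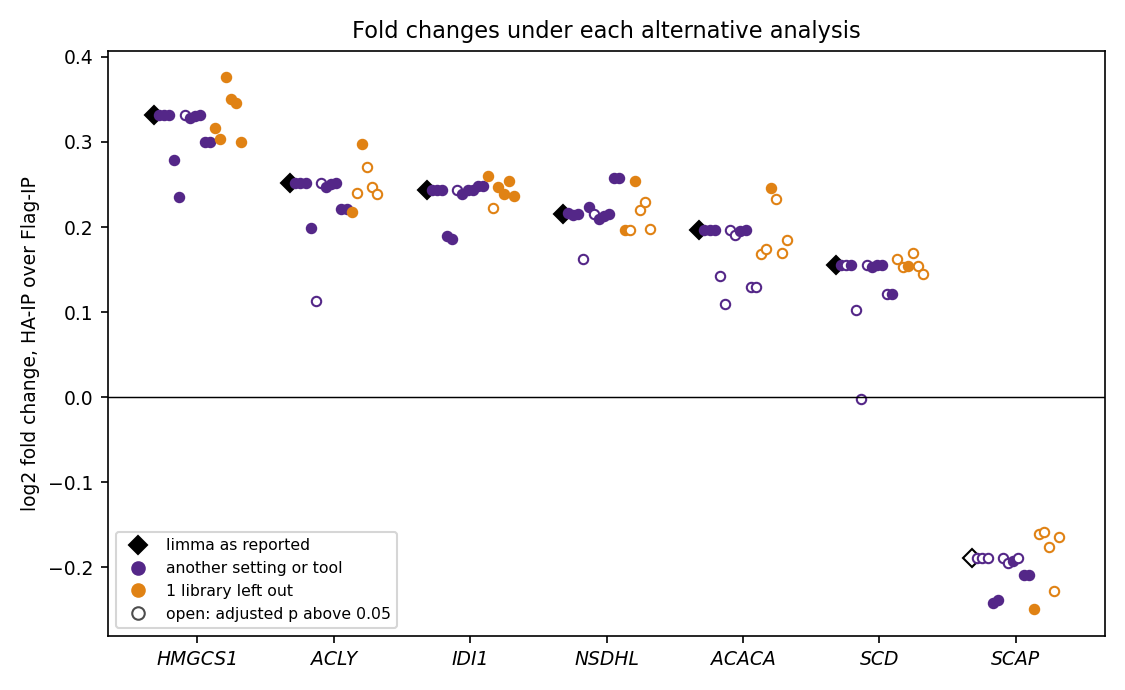
Log2 fold change, HA-IP over Flag-IP, of the 6 genes that passed and of SCAP under the limma fit as reported (diamonds), under 11 other settings or tools (purple) and with 1 library left out (orange); open symbols have an adjusted p above 0.05. HMGCS1 and IDI1 stay filled in nearly all fits, and 1 point of SCD lies near 0.

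Other genes of lipid synthesis were counted from 5 lists, and 63 of the 65 listed genes were tested. Of these, 8 passed toward the HA-IPs and 4 toward the Flag-IPs, which is 12.7% and 6.35%, beside 5.79% and 7.1% of all genes. None of the 11 genes of the branch that makes isoprenoids other than sterols passed. Of the 11, 2 had an unadjusted p below 0.05, beside 4587 of all 16834 genes. With the GC and length trends removed RABGGTB, a subunit of an enzyme that prenylates Rab proteins, and PDSS1, which makes the side chain of ubiquinone, passed toward the HA-IPs (adjusted p 0.010 and 0.043). Among 8 genes of protein degradation at the ER linked to sterols, RNF145, an ER ubiquitin ligase, was called alone. It had 1593, 1667 and 1568 normalized counts in the 3 Flag-IPs, whereas the 3 HA-IPs read 4446, 4829 and 4789, a 2.91-fold difference with an adjusted p of 8.6e-08, far larger than any of the 32 genes.

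Of 14 genes of sterol handling, NPC1 and OSBP were higher in the HA-IPs and ABCA1 was higher in the Flag-IPs. NPC1, which exports cholesterol from lysosomes, had a log2 fold change of 0.20 (adjusted p 0.033) and OSBP, a sterol carrier between the ER and the Golgi, 0.17 (0.037). ABCA1, a cholesterol exporter of the cell surface, was low, with 41.6, 41.5 and 24.0 normalized counts among the Flag-IPs, beside 5.65, 3.96 and 16.5 among the HA-IPs, and a log2 fold change of −2.10 (adjusted p 0.017). Of 20 genes that elongate and activate fatty acids, ACSL4, ACSL3 and ME1 were higher in the HA-IPs and TECR lower. The acyl-CoA synthetase ACSL4 had a log2 fold change of 0.28 (adjusted p 0.010), its relative ACSL3 0.22 (0.020), and the malic enzyme ME1, a source of NADPH, 0.21 (0.029). TECR, the last reductase of fatty acid elongation, had −0.30 (0.0077), and −0.16 (0.055) with the GC and length trends removed. Of 10 genes of glycerolipid synthesis, GPAM and LPIN1 were higher in the HA-IPs, by 0.25 (adjusted p 0.014) and 0.21 (0.047) on the log2 scale, and AGPAT1 and DGAT2 lower. AGPAT1, an acyltransferase that makes phosphatidic acid, had −0.32 (0.0040). DGAT2, which makes triglyceride, had 151, 122 and 154 normalized counts across Flag-IPs 1 to 3, against 67.7, 57.4 and 52.9 across HA-IPs 1 to 3, a log2 fold change of −1.25 (0.0015). RNF145, AGPAT1 and DGAT2 passed in all 6 fits that left out 1 library, and the other 9 were lost in 1 to 5 of them.

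The label of a kidney epithelial line was looked at through 10 genes of HEK293 cells and epithelium, all of which were measured. Together they took 0.246% to 0.268% of the normalized counts in each library. The largest parts were NEFL, at 27352 to 29469 normalized counts, and VIM, at 21676 to 27005. CDH1 stood at 602 to 773, so the sum says little about the less read genes of the 10. Of these 10, EPCAM and CDH1, genes of epithelial adhesion, were called higher in the HA-IPs, by 0.34 and 0.29 on the log2 scale (adjusted p 0.0029 and 0.017), and PAX2, a kidney transcription factor, higher in the Flag-IPs, with −0.79 (0.047). Genes of heart muscle were measured too. All 23 of the heart muscle markers tested, among them MYH7 and ACTA1, were called higher in the Flag-IPs, with summed shares of 0.758%, 0.547% and 0.350% across Flag-IPs 1 to 3 and 0.00933% to 0.0706% in the HA-IPs, the highest of these in HA-IP 3. Their part in the differences of the lipid genes was not tested. Of 11 liver markers, CYP2E1 was the 1 tested, at 7.76 to 15.7 normalized counts, and of 8 adipocyte markers 5 were tested, with FABP4 called higher in the Flag-IPs.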

How the data were processed

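Polyadenylated RNA from 3 Flag-IPs and 3 HA-IPs was sequenced as read pairs of 150 bp. Per the submitters' processing notes and the methods, the authors used Trimmomatic 0.36 for trimming, STAR 2.5.2b for mapping to GRCh38 and featureCounts (Subread 1.5.2) for counting, excluded genes with fewer than 10 reads in at least 3 samples and ran DESeq2. The deposited values are a signal: the authors had divided each read count by the size factor of its library. The table also holds the authors' own log2 fold changes and adjusted p-values, which were not used. Undoing that division gave whole reads, within 0.01, for 100% of values in every library. The totals were 23174532, 28223693 and 33429519 reads for Flag-IPs 1 to 3, against 44134833, 31807471 and 28737728 for HA-IPs 1 to 3. The lowest library of any of the 32 genes held 194 reads, so the spread between replicates, with a median coefficient of variation of 6.06% among Flag-IPs and 4.06% among HA-IPs, limited the precision.

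Limma 3.58.1 (R 4.3.3) was fitted to log2(normalized counts + 1) of all 16834 genes, with a variance trend and a two-sided test, and p-values were adjusted by Benjamini-Hochberg with a threshold of 0.05. The scripts were tested on simulated data with 200 changed genes. Recovered reads were also tested by edgeR 4.0.16 (TMM, quasi-likelihood) and by DESeq2 1.42.0. Further alternatives were pseudocounts of 0.1 and 10, a minimum mean of 50, quantile normalization, an equal total per library, no variance trend, a replicate block, removal of trends with GC content and transcript length, and leaving out each library. Those trends were fitted in each library by robust regression (MASS 7.3.60.0.1) on splines with 5 degrees of freedom. Gene positions, lengths and GC content came from GENCODE (GRCh38), which held 99.1% of the identifiers. Promoters came from RefSeq (GRCh38.p14) and were matched by symbol. All 32 genes are named. Full statistics are given for those that passed and for the 3 largest fold changes in each direction, and of the other lists the genes that passed are named, at most 4 a list. The 32 genes and all lists were chosen with earlier results of these data known. An exact permutation test of 3 against 3 libraries cannot go below a p of 0.1. Plots were drawn with matplotlib 3.10.9.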

Additional observations from a re-analysis of the deposited data

How the results depend on the processing

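Among the 32 genes 6 calls went to the HA-IPs and 0 to the Flag-IPs. Pseudocounts, the filter on low means and edgeR left 5 to 7 and 0. Beside these stood 5.67% and 6.92% of all genes with a pseudocount of 0.1, and 5.95% and 7.26% with 10. With the filter on low means 7.49% and 6.94% of the genes kept were called. The counts were 3 and 2 with each library scaled to the same total (2.8% and 9.36% of all genes), 3 and 3 with quantile normalization (4.18% and 5.96%), 0 and 0 in limma without the trend (0.0356% and 1.08%), 7 and 1 with DESeq2, 7 and 2 with GC content and transcript length trends removed, and 8 and 2 with these removed and a replicate block (6.48% and 6.8%). With 1 library left out they ranged from 1 to 9 and from 0 to 1. Toward the HA-IPs HMGCS1 was the 1 gene left without Flag-IP 2 (0.612% of all genes), 2 genes were left without HA-IP 1, 2 or 3 (1.34%, 1.59% and 1.89%), 5 without Flag-IP 1 (5.19%) and 9 without Flag-IP 3 (9.21%). All genes called fell from 2171 to 620 without Flag-IP 2 and to 188 without the trend. The median log2 fold change of the list moved from 0.056 to 0.0027 with the same total and to 0.022 with quantile normalization, where the median of all genes moved from −0.005 to −0.057 and 0.044. Over all genes the same total gave 471 calls toward the HA-IPs and 1576 toward the Flag-IPs, in place of 975 and 1196. The cause was not tested.

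SCD was the 1 called gene that changed sign, to −0.0017 with quantile normalization. The other genes that changed sign had not passed. With the same total the log2 fold change of MVK became −0.048, SQLE −0.00088, LSS −0.047, CYP51A1 −0.022, HSD17B7 −0.0030 and SREBF2 −0.037. With quantile normalization SQLE became −0.020, LSS −0.073, DHCR7 −0.0006, INSIG2 0.076 and SREBF2 −0.061. With edgeR MVK became −0.00088 and LSS −0.00015. With the GC and length trends removed, with and without the block, PMVK became 0.058, LSS −0.0071, EBP 0.13 and SREBF2 −0.0028. With 1 library left out, LSS ranged from −0.055 to 0.051, SQLE from −0.0067 to 0.087, EBP from −0.032 to 0.051, INSIG2 from −0.17 to 0.12, SREBF2 from −0.0041 to 0.036, FADS1 from −0.062 to 0.041, MVK from −0.035 to 0.045, MVD from −0.074 to 0.010, CYP51A1 from −0.0072 to 0.074 and HSD17B7 from −0.023 to 0.11.

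With the replicate number as a block the same calls were made for all 32 genes (6 and 0). Deviations of same-numbered libraries from their group means correlated at −0.16, 0.031 and −0.31 over 13141 genes. With 3 libraries in each group, such correlations cannot show whether libraries of the same number were paired.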
